A study of Rattus rattus with 18 samples.

Results

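The 121 genes described here were higher in arcuate nucleus RNA of rats given a miR-211 mimic than in that of rats given a miR-211 hairpin inhibitor. They were chosen by their measured levels in the 8 libraries of that experiment, out of 8043 genes with a mean mimic CPM (defined below) of 10 or more. CPM is the count of a gene as a share of the counts on all genes of its library, times 1e6. A member had a mean mimic CPM of 10 or more and at least 1.3 times the mean inhibitor CPM, and each of its 4 mimic values lay above each of its 4 inhibitor values. Slco1c1 met these conditions too and was left out, as the choice of the set required, so 122 genes met them in all. The difference between mimic and inhibitor is therefore what defined the set and is described without a test.

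The study asked how diet and voluntary running act on the arcuate nucleus of female rats, and whether miR-211 takes part. All animals were female Wistar rats, and each library came from punches of the arcuate nucleus. In the miR-211 experiment, chow-fed rats arrived at postnatal day 60 and were older at infusion, after acclimation, surgery and recovery. They received the mimic (4 libraries) or the hairpin inhibitor (4 libraries) through a cannula into the third ventricle. Each was infused in a transfection reagent after a night without food, and tissue was taken 6 h later. In the diet and running experiment, CS rats (3 libraries) ate chow and stayed sedentary, HFS rats (3 libraries) ate a diet with 60% of energy from fat and stayed sedentary, and HFR rats (4 libraries) ate the same diet and had a running wheel. The fatty diet began at postnatal day 21, and the wheel or sedentary housing ran for 4 weeks from postnatal day 90. The paper states that this experiment was repeated, and the labels do not say which run a library came from. The mimic was set against the inhibitor and not against an untreated or control-oligonucleotide group, so that a gene raised by the mimic and a gene lowered by the inhibitor cannot be told apart here.

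A microRNA is a short RNA that guides an Argonaute protein to messenger RNAs with matching sites, mostly in their 3′ untranslated regions, and direct targets usually fall. A mimic adds the active strand, and a hairpin inhibitor binds and blocks the cell's own copies. Genes that stand higher with the mimic than with the inhibitor thus have the direction opposite to that of a repressed target. miR-211 lies in an intron of Trpm1, and the arcuate nucleus, at the base of the hypothalamus, holds the neurons that sense nutrients and set appetite.

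The libraries of the miR-211 experiment held 1275263 to 6615927 counts on genes (median 2113360), and those of the diet and running experiment 4680736 to 7494207 (median 5501544). A gene at 10 CPM thus rested on the fewest counts in the shallowest library, mimic replicate 4, where 1 count was worth 0.784 CPM. No pair of libraries held identical counts. The labels number the libraries of a group as replicates, and p-values measure the spread between these libraries.

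Inhibitor replicate 2 stood apart from the other inhibitor libraries over the members. Their CPM summed to 7984, 6002, 8384 and 8883 in inhibitor replicates 1 to 4 and to 10721, 10827, 11593 and 10728 in mimic replicates 1 to 4. Inhibitor replicate 2 was the lowest of its group in 78 of the 121 members (64.5%), against 2350 of the 8043 genes with a mean mimic CPM of 10 or more (29.2%). In the set chosen the other way, with the inhibitor above the mimic, it was the highest inhibitor library in 154 of 248 genes (62.1%, against 25.9% of those 8043 genes). The inhibitor values made both choices and a library far from its group can bring genes into either set, so these shares describe the sets and are no test of the library. Its depth was not unusual, at 2096588 counts. In the diet and running experiment CS replicate 2 was the lowest CS library in 73 members (60.3%, against 38.6% of those genes), and HFR replicate 3 was the lowest HFR library in 61 (50.4%, against 30.5%).

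Over the members the ratio of mimic mean to inhibitor mean had a median of 1.43 and ran from 1.3 to 3.95. It reached 1.5 in 44 members, 2 in 3 and 3 in 2. Leaving out inhibitor replicate 2 lowered the median to 1.36, and 36 of the 121 members then had a ratio under 1.3. Applied to those 7 libraries, the same conditions chose 123 genes, 85 of them members. With any other single library left out they chose 171 to 264, the most without inhibitor replicate 4. The condition that the groups do not overlap is easier to meet with fewer libraries, so these counts are not like for like with 121. The conditions picked out 1.52% of the 8043 genes with a mean mimic CPM of 10 or more. Turned round, with the inhibitor above the mimic, they picked out 248 of the 8095 genes with a mean inhibitor CPM of 10 or more, which is 3.06%.

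**Figure D1:**
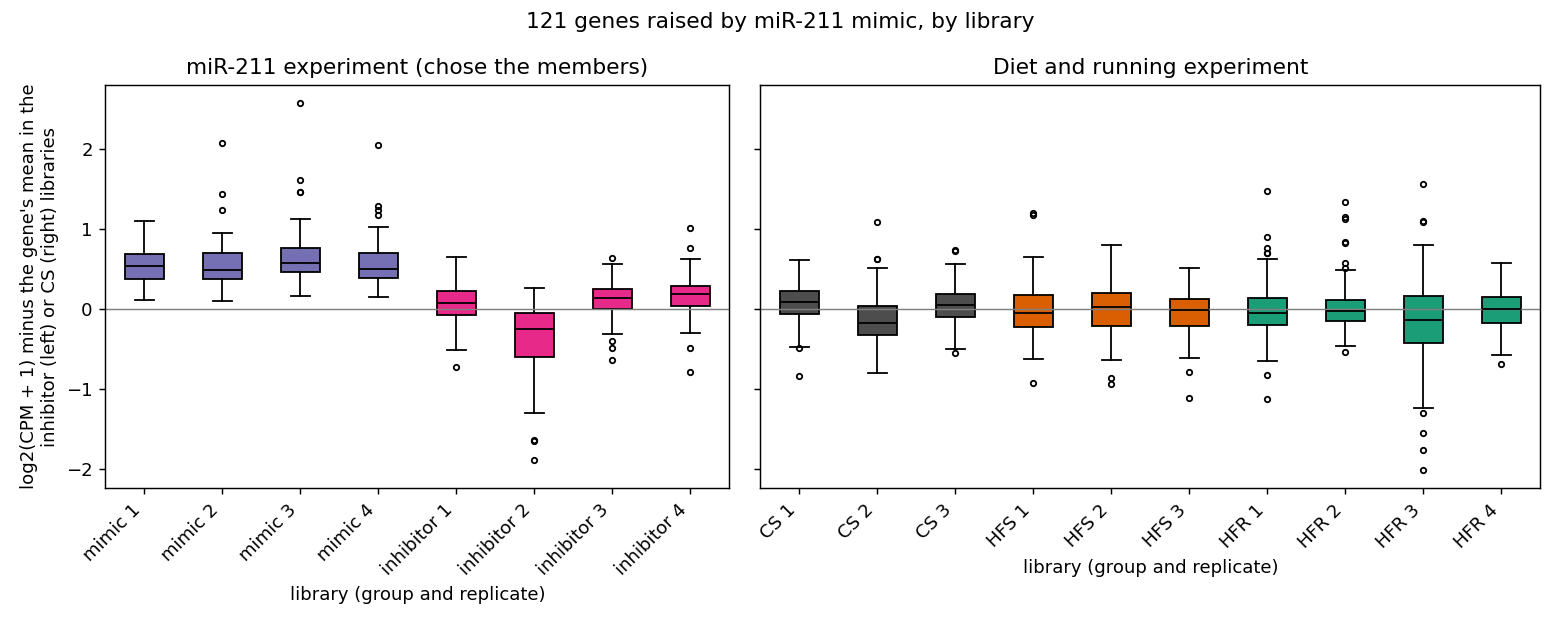
Each box holds the 121 members in 1 library, as log2(CPM + 1) minus the gene's mean over the 4 inhibitor libraries (left, mimic and inhibitor) or over the 3 CS libraries (right, CS, HFS and HFR); the line is the median, the box spans the middle of the members from the lower to the upper quartile, whiskers reach to 1.5 times that span and circles lie beyond. The mimic medians lie between 0.49 and 0.58, inhibitor replicate 2 has a median of -0.25 against 0.07 to 0.19 in the other inhibitor libraries, and the boxes on the right all include 0.

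The thresholds divided genes with nearly equal values. Just inside the ratio were ENSRNOG00000014613 (ratio 1.3, mean mimic CPM 57.5) and ENSRNOG00000015528 (1.301, 411), and just outside were ENSRNOG00000008034 (1.295, 86.6) and ENSRNOG00000006770 (1.294, 25.3). At the level of 10 CPM, ENSRNOG00000016214 (10.03) and ENSRNOG00000037251 (10.1) were inside, and ENSRNOG00000019519 (9.87) and ENSRNOG00000020173 (9.75) outside. Syt17 and ENSRNOG00000011160 were the members with the smallest gap between groups: the lowest mimic and the highest inhibitor value of Syt17 were both 18.6 CPM at this rounding. ENSRNOG00000011901, with a lowest mimic value of 20.39 and a highest inhibitor value of 20.41 CPM, missed the set.

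Of the 121 members, 19 carried a symbol in the gene tables used here and 102 are known by identifier only. Symbols were at hand for genes that had been listed as changed, either in this contrast or between the diet and running groups, so the named members are not a neutral sample of the set and their direction here is not independent evidence. They are described by role, with CPM in replicates 1 to 4 of each group.

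Secreted signals and a secreted Wnt modulator were among the members. Gdf11 encodes a growth factor of the TGF-beta family that acts through activin receptors. Its CPM was 64.5, 63.8, 68.2 and 76.1 in the mimic libraries and 48.7, 29.1, 51.4 and 42.3 in the inhibitor libraries, with means of 68.1 ± 5.62 and 42.9 ± 9.96 (SD, n = 4 each) and a ratio of 1.59. Inhibitor replicate 2 was the lowest library, and without it the ratio was 1.43. Metrn encodes meteorin, a secreted factor that acts on glial differentiation and the growth of nerve fibres. Its CPM was 84.4, 132, 151 and 99.6 in the mimic libraries and 83.4, 66.8, 67.9 and 63.2 in the inhibitor libraries (ratio 1.66). Mimic replicates 2 and 3 were high, while mimic replicate 1 stood 1 CPM above inhibitor replicate 1, so the groups were separated by little. Dkk3 encodes a secreted glycoprotein of the Dickkopf family of Wnt regulators. Its CPM was 12.1, 19.7, 18.6 and 14.9 in the mimic libraries and 11.5, 9.06, 11.98 and 11.9 in the inhibitor libraries (ratio 1.47, 1.38 without inhibitor replicate 2), and the lowest mimic and highest inhibitor values nearly touched.

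Receptors were also among the members. Ptch1 encodes the receptor of Hedgehog ligands, which holds Smo in check when no ligand is bound and is itself a transcriptional target of the pathway. Its CPM was 177, 123, 129.8 and 118 in the mimic libraries and 102, 67.7, 89.9 and 71.6 in the inhibitor libraries (ratio 1.65, 1.56 without inhibitor replicate 2). Mimic replicate 1 was the highest library, and the other mimic libraries lay close together above the inhibitor range. Smo, the only other gene of 12 in the Hedgehog list that had an identifier, was not a member: its CPM was 41.3, 36.1, 30.2 and 43.9 with the mimic and 23.1, 34.8, 30.5 and 31.0 with the inhibitor, and the groups overlapped. Gpr37l1 encodes a G protein-coupled receptor of astrocytes for which prosaposin has been proposed as a ligand. Its CPM was 337, 286, 324 and 289 in the mimic libraries and 243, 200.3, 203 and 242 in the inhibitor libraries (ratio 1.39). All mimic libraries lay well above the inhibitor range, and leaving out inhibitor replicate 2 left a ratio of 1.35. Cxcl12, a chemokine, was not a member, at 30.4, 30.05, 29.3 and 20.4 CPM with the mimic and 21.2, 17.2, 14.98 and 12.2 with the inhibitor, since mimic replicate 4 lay below inhibitor replicate 1.

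Among enzymes and adaptors of signalling, Dusp7 had the highest ratio of the set. It encodes a phosphatase that inactivates the MAP kinase ERK. Its CPM was 5.42, 15.5, 22.3 and 6.27 in the mimic libraries and 5.13, 1.43, 2.50 and 3.48 in the inhibitor libraries (ratio 3.95, 3.34 without inhibitor replicate 2). The ratio came from mimic replicates 2 and 3, whereas mimic replicates 1 and 4 lay within about 1 CPM of inhibitor replicate 1. These values rested on 18, 33, 54 and 8 counts with the mimic and 8, 3, 5 and 23 with the inhibitor. Nim1k encodes a kinase related to AMPK, at 47.3, 38.5, 35.1 and 39.2 CPM in the mimic libraries and 19.2, 23.4, 30.5 and 21.8 CPM in the inhibitor libraries (ratio 1.69). Slc9a3r2 encodes the scaffold NHERF2, which tethers transporters and receptors below the membrane, at 59.7, 48.8, 64.5 and 54.9 CPM in the mimic libraries and 41.0, 42.4, 39.4 and 38.2 CPM in the inhibitor libraries (ratio 1.41). In neither gene was inhibitor replicate 2 the lowest library, and their ratios without it were 1.68 and 1.44. Klhl12 encodes a substrate adaptor of the CUL3 ubiquitin ligase, at 24.1, 22.5, 31.0 and 31.4 CPM in the mimic libraries and 17.3, 11.4, 20.97 and 17.2 CPM in the inhibitor libraries (ratio 1.63, 1.47 without inhibitor replicate 2). Pcbp2, an RNA-binding protein with affinity for poly(C) stretches, had 179.9, 215, 171 and 172 CPM in the mimic libraries and 163, 111, 91.4 and 131 CPM in the inhibitor libraries (ratio 1.49). The highest inhibitor value of Pcbp2, in replicate 1, came close to the mimic range.

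Dlx1 encodes a homeodomain transcription factor of GABAergic neurons. Its CPM was 75.3, 65.3, 88.9 and 83.9 in the mimic libraries and 63.5, 32.9, 50.9 and 56.5 in the inhibitor libraries (ratio 1.54), and inhibitor replicate 2 was far below its group, so that the ratio without it was 1.37. Ina encodes alpha-internexin, an intermediate filament protein of axons. Its CPM was 519, 437, 494 and 439.9 in the mimic libraries and 354, 289, 403 and 400.4 in the inhibitor libraries (ratio 1.31), and without inhibitor replicate 2 the ratio was 1.22, under the 1.3 that the choice required. Pafah1b1 encodes LIS1, a regulator of the motor protein dynein needed for neuronal migration, and had 263, 314, 250.1 and 304 CPM in the mimic libraries and 207, 184, 212 and 248 CPM in the inhibitor libraries (ratio 1.33). Its ratio also fell under 1.3, to 1.27, when inhibitor replicate 2 was left out. Syt17 belongs to the synaptotagmin family of membrane trafficking proteins, with 25.9, 20.7, 18.6 and 23.5 CPM in the mimic libraries and 18.6, 15.3, 18.5 and 10.7 CPM in the inhibitor libraries (ratio 1.41). Vat1l, related to a synaptic vesicle protein, had 125, 149.8, 221 and 122 CPM in the mimic libraries and 121, 96.8, 119 and 101 CPM in the inhibitor libraries (ratio 1.41, 1.35 without inhibitor replicate 2). Mimic replicate 3 alone was far above the inhibitor range of Vat1l, and mimic replicate 4 stood 122 against 121 CPM in inhibitor replicate 1. Leaving out a library other than inhibitor replicate 2 could also take Vat1l and Syt17 under a ratio of 1.3. Their lowest log2 ratios with 1 library left out were 0.267 and 0.346, against 0.491 and 0.492 with all libraries.

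The remaining named members have general roles or none that is well known. Atp6v0d1 encodes a subunit of the V-type ATPase, the proton pump that acidifies lysosomes and synaptic vesicles, with 491, 609, 577 and 527 CPM in the mimic libraries and 329, 402, 424 and 477 CPM in the inhibitor libraries (ratio 1.35). With 1 library left out its log2 ratio fell as low as 0.343, a ratio under 1.3, from 0.434 with all libraries. Abhd14b encodes a small hydrolase, with 72.6, 77.0, 61.2 and 77.6 CPM in the mimic libraries and 50.0, 53.4, 53.4 and 54.6 CPM in the inhibitor libraries (ratio 1.36), and its inhibitor libraries lay within 5 CPM of each other. RGD1311744, a predicted gene, had 56.0, 46.0, 37.2 and 61.2 CPM in the mimic libraries and 32.1, 29.1, 36.5 and 33.7 CPM in the inhibitor libraries (ratio 1.53, 1.47 without inhibitor replicate 2), and mimic replicate 3 came close to inhibitor replicate 3. AABR07061825.1, a gene model named after its clone, had 14.2, 16.0, 21.1 and 29.0 CPM in the mimic libraries and 8.98, 7.63, 6.49 and 3.17 CPM in the inhibitor libraries and the second highest ratio, 3.05. Its values rested on 34 to 51 counts with the mimic and 13 to 21 with the inhibitor.

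**Figure D2:**
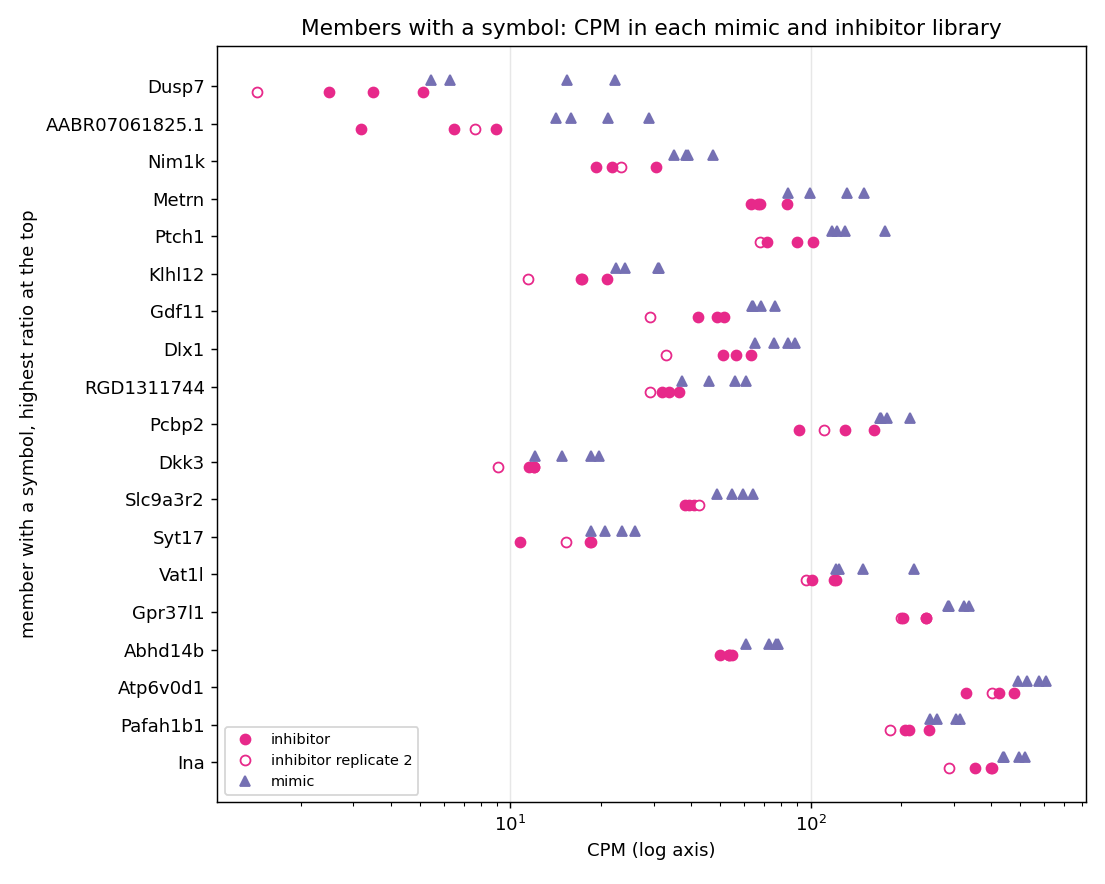
The 19 members with a symbol are on the vertical axis, from the highest to the lowest ratio of mimic mean to inhibitor mean, and CPM is on the horizontal log axis; each triangle is a mimic library, each circle an inhibitor library, and the open circle is inhibitor replicate 2. No triangle lies below a circle of the same gene, as the choice required, and the gap ranges from wide in AABR07061825.1 to near 0 in Syt17.

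In some members without a symbol the weight of inhibitor replicate 2 was greater still. ENSRNOG00000047960 (ratio 1.97) had 37.1, 47.4, 48.4 and 35.3 CPM in the mimic libraries and 21.2, 3.82, 25.5 and 35.1 CPM in the inhibitor libraries, and its ratio without that library was 1.54. ENSRNOG00000012178 (ratio 1.46) had 139.8, 153, 167 and 147 CPM in the mimic libraries and 109.7, 37.2, 131 and 137 CPM in the inhibitor libraries, and its ratio without that library was 1.204. In both, inhibitor replicate 4 reached close to the lowest mimic value. These 2 genes were singled out after their values were seen.

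**Figure D3:**
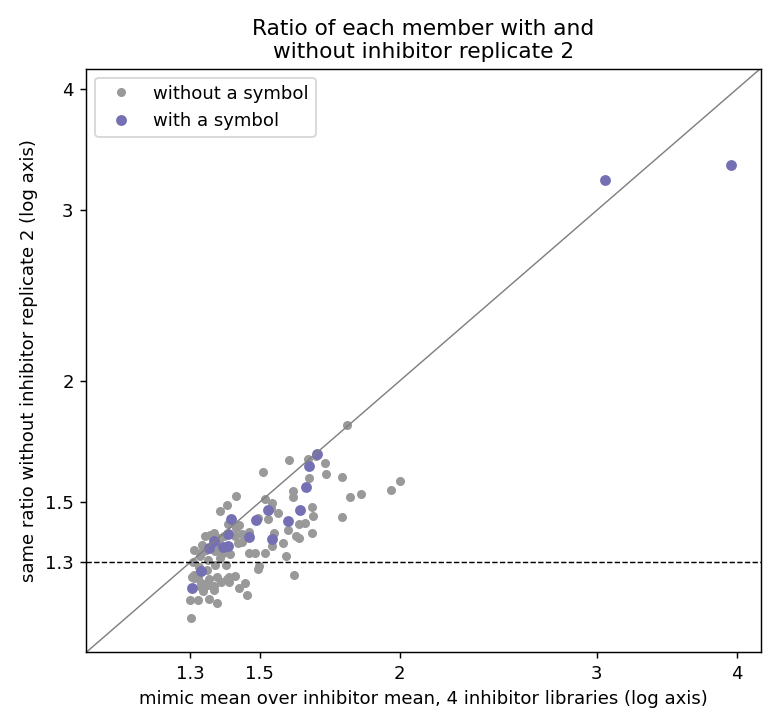
Each point is a member, with its ratio of mimic mean to inhibitor mean on the horizontal axis and the same ratio without inhibitor replicate 2 on the vertical axis, both on log scales; purple points have a symbol and grey points have none. Most points lie below the diagonal of equal ratios, and 36 lie under the dashed line at 1.3.

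Markers of cell types were read beside the members. The tissue is bulk, so fewer cells of a type and less RNA per cell cannot be told apart. Most marker lists had few genes with an identifier, under 80% in each list, so they are given as values and not as a check of the lists. Of the 7 neuron markers only Snap25 had one, at 1019.7, 1159, 1639.8 and 826 CPM with the mimic and 949, 479.8, 1092 and 912 with the inhibitor. Inhibitor replicate 2 was again the lowest, and the other inhibitor libraries lay within the mimic range. Of 12 microglia and myeloid markers, 5 had one (Cd68, Cd74, Tyrobp, Lyz2 and S100a8), and their CPM summed to 227, 353, 285 and 434 with the mimic and 381, 1516, 658 and 1094 with the inhibitor, with Lyz2 the most abundant on average. Inhibitor replicate 2 was the highest library there, and the sums of the groups overlapped. Mimic and inhibitor means were 4.03 and 17.3 CPM for Cd68, 104 and 150 for Cd74 and 63.5 and 118 for Tyrobp. They were 150 and 585 CPM for Lyz2 and 3.32 and 41.2 for S100a8, so all 5 were higher with the inhibitor. The groups were apart only in Lyz2, at 130 to 185 CPM with the mimic and 203 to 1035 with the inhibitor. The 11 of 14 immediate early and acute response genes with an identifier summed to 928, 936, 665 and 1382 CPM with the mimic and 2347, 5322, 2558 and 3265 with the inhibitor, with Mt2A the most abundant on average, and the groups did not overlap. Their part in the levels of the members was not tested.

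The other lists give the same kind of single values. Gfap, the 1 astrocyte marker of 9 with an identifier, had 1118, 1909, 1196 and 2886 CPM with the mimic and 1870.2, 2659.6, 2519.6 and 2660.2 with the inhibitor, and the groups overlapped. Mbp, the 1 oligodendrocyte marker of 10, had 5767, 8384, 9949.8 and 5291 CPM with the mimic and 9545, 6306, 8170.0 and 6630.1 with the inhibitor, also with overlap. Nes, the 1 tanycyte and ependymal marker of 8, overlapped too, at 11.1, 7.98, 4.13 and 24.3 CPM with the mimic and 65.4, 15.7, 7.49 and 18.9 with the inhibitor. Slc2a1 and Itm2a, the 2 of 10 endothelial and mural markers, went opposite ways: Slc2a1 had 185, 135, 153 and 143 CPM with the mimic and 282, 284, 193 and 226 with the inhibitor, and Itm2a 46.4, 50.7, 48.4 and 33.7 CPM with the mimic and 35.3, 18.1, 23.5 and 30.1 with the inhibitor. The groups were apart in Slc2a1, while mimic replicate 4 lay below inhibitor replicate 1 in Itm2a. Of 15 arcuate neuron genes, 5 had an identifier (Pomc, Ghrh, Cck, Gad2 and Slc32a1). Pomc, which marks the appetite-lowering neurons of this nucleus, was found in every miR-211 library, from 51.3 CPM in mimic replicate 3 to 1032 in mimic replicate 4, so its level varied widely within a group. Mimic and inhibitor means were 47.2 and 49.5 CPM for Ghrh, 26.0 and 39.4 for Cck, 239 and 235 for Gad2 and 517 and 464 for Slc32a1. Mt-co1, the 1 mitochondrially encoded gene of 9, had 95.2, 396, 548 and 173 CPM with the mimic and 129, 90.1, 85.4 and 74.97 with the inhibitor. Of 8 blood and choroid plexus markers, and for Trpm1, no identifier was at hand. Members came only from the Hedgehog list (Ptch1), the GDF11 and activin list (Gdf11, the 1 gene of 11 with an identifier) and the list of meteorins and prosaposin receptors (Metrn and Gpr37l1, the 2 of 5 with one).

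Levels could also be looked at between the experiments. The RNA was isolated by different methods, and molecular identifiers are named for the miR-211 counts only, so levels are set side by side without a test. The inhibitor levels also took part in the choice of the members. In 7 members (5.79%) the inhibitor mean was over 5 times the diet and running mean, against 421 of the 8043 genes with a mean mimic CPM of 10 or more (5.23%). In 5 members (4.13%) it was under 0.2 times, against 81 of those genes (1.01%). Atp6v0d1 had an inhibitor mean of 408 CPM and a diet and running mean of 16.3, and Pcbp2 124 and 19.9. Dkk3 went the other way, with 11.1 and 132 CPM. ENSRNOG00000020975 was at 16.5 to 25.4 CPM in the miR-211 libraries and at 0 to 1.052 CPM in the others, and it was the only member that did not pass the filter on low counts there.

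**Figure D4:**
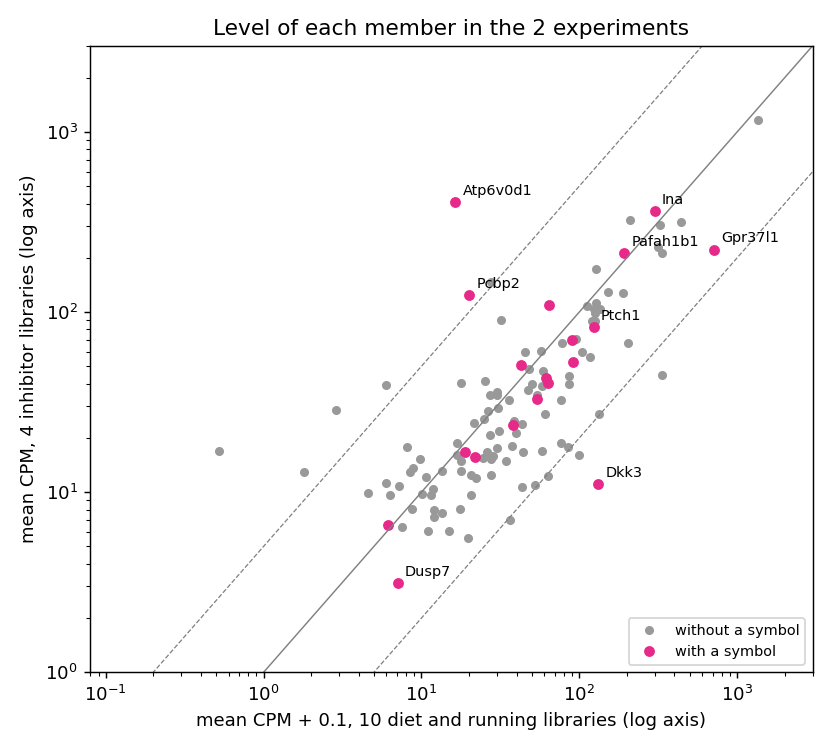
Each point is a member, with its mean over the 10 diet and running libraries (CPM + 0.1, horizontal) and its mean over the 4 inhibitor libraries (CPM, vertical), both on log axes; pink points have a symbol. The solid line marks equal levels and the dashed lines a 5-fold difference, with 7 members above the upper line and 5 below the lower one.

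The diet and running libraries took no part in choosing the members, so these comparisons could be tested. They asked whether a fatty diet, or the same diet with running, changed the genes that were higher with the mimic than with the inhibitor. edgeR's quasi-likelihood test was fitted to all 10 libraries and 11892 genes, and 120 of the 121 members passed its filter. A gene was called at an adjusted p under 0.1. No member was called in any of the 3 comparisons.

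HFS vs. CS addressed the diet. Over all genes none was called (0%), and none of the 120 members was. At an unadjusted p under 0.05, 0 members were higher and 0 lower in HFS, beside 310 genes higher (2.61%) and 229 lower (1.93%) over all genes tested. DESeq2 called 2 of 19407 genes and none of 121 members. It was fitted without the filter on low counts, so its shares over all genes take in genes with few counts. These shares are not like for like with the members. At an unadjusted p under 0.05 it gave 1 member higher and 1 lower (0.826% each), beside 319 (1.64%) and 309 (1.59%) of all genes. The median log2 fold change was -0.03 over the members and 0.00 over all genes. A higher estimate in HFS was found in 55 members (45.8%), beside 5994 of all genes (50.4%). The counts at an unadjusted p under 0.05 depended on CS replicate 2. Without it 6 members were higher and 4 lower at an unadjusted p under 0.05, beside 736 (6.05%) and 396 (3.26%) of 12158 genes, and the members' median was -0.10. Across the other libraries left out singly, at most 3 members were higher (2.5%) and 1 lower (0.833%), beside 1.51% to 3.01% and 1.38% to 2.89% of all genes.

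HFR vs. CS addressed the diet and running together. edgeR called 2 genes (0.0168%), neither a member. DESeq2 called 16 of 19407 genes, 1 of them a member. At an unadjusted p under 0.05 it gave 4 members higher and 4 lower (3.31% each of 121), beside 286 (1.47%) and 339 (1.75%) of all genes, again without the filter on low counts. At an unadjusted p under 0.05 from edgeR, 4 members were higher and 4 lower in HFR, each 3.33% of 120, beside 236 (1.98%) and 296 (2.49%) of all genes. The median log2 fold change was -0.04 over the members and -0.01 over all genes. A higher estimate in HFR was found in 50 members (41.7%), beside 5748 of all genes (48.3%). Without CS replicate 2 the median was -0.10 over the members and 0.01 over all genes, and 4 members were higher and 7 lower, beside 464 (3.82%) and 339 (2.79%) of 12158 genes. Without HFR replicate 3 there were 3 and 1 members, beside 245 (2.06%) and 327 (2.75%) of 11885 genes. No member was lower without CS replicate 3, beside 278 of 12216 genes (2.28%), and the 2 genes called over all genes were lost without CS replicate 1.

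HFR vs. HFS addressed running on the fatty diet. edgeR called no gene (0%), DESeq2 none either. At an unadjusted p under 0.05, 0 members were higher and 3 lower in HFR, beside 196 (1.65%) and 333 (2.80%) of all genes. By DESeq2, without the filter on low counts, these counts were 2 and 2 of 121 members, beside 274 (1.41%) and 325 (1.67%) of 19407 genes. The median log2 fold change was -0.02 over the members and -0.01 over all genes. A higher estimate in HFR was found in 55 members (45.8%), beside 5775 of all genes (48.6%). Without HFR replicate 3, 4 members were higher and 2 lower, beside 277 (2.33%) and 368 (3.10%) of 11885 genes. Without HFR replicate 4 there were 3 and 4 members, beside 224 (1.89%) and 559 (4.73%) of 11828 genes, with 29 genes and no member called. With any 1 library left out, 0 to 4 members were higher and 1 to 4 lower, beside 1.06% to 2.33% and 1.18% to 4.73% of all genes. The 3 comparisons share libraries pairwise, so their counts are not independent of each other.

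**Figure D5:**
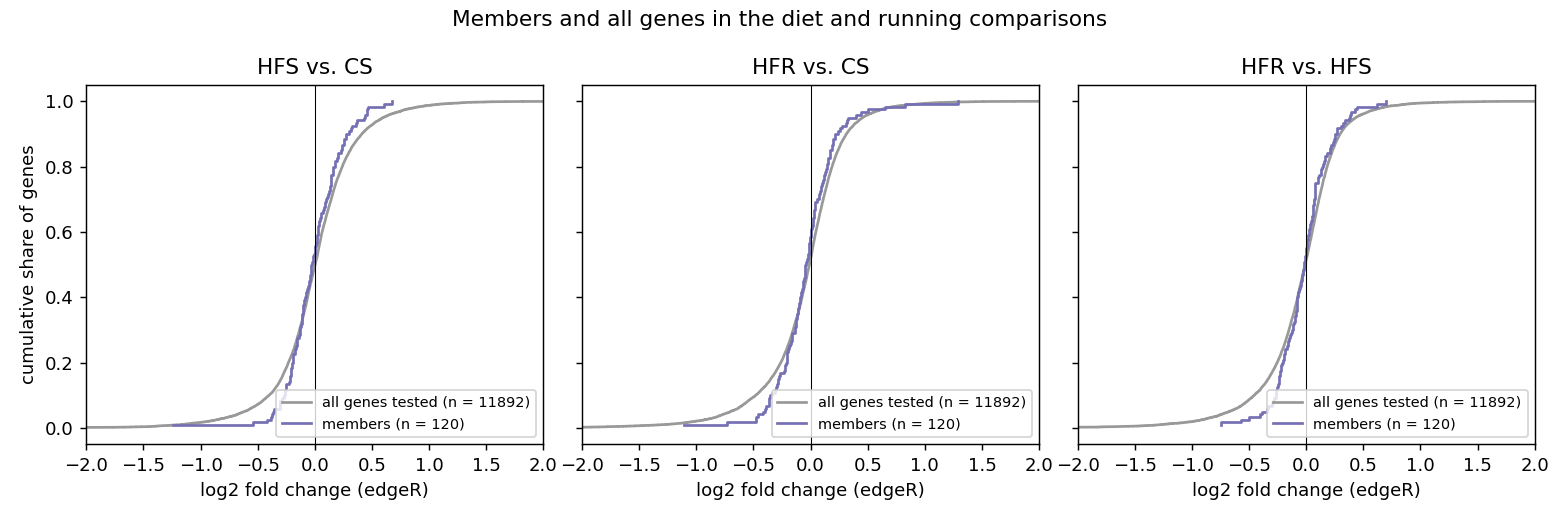
Each panel gives the cumulative share of genes (vertical) up to a log2 fold change from edgeR (horizontal), for the 120 members tested (purple) and all 11892 genes tested (grey). In HFS vs. CS, HFR vs. CS and HFR vs. HFS, 45.8%, 41.7% and 45.8% of the members lie above 0. Of all genes 50.4%, 48.3% and 48.6% do, and the medians of the members are -0.03, -0.04 and -0.02.

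The members with the smallest p were all known by identifier. ENSRNOG00000046280 led in HFR vs. CS: it had 15.3, 24.1 and 14.7 CPM in CS, 41.3, 22.6 and 21.8 in HFS and 51.1, 46.2, 54.1 and 24.8 in HFR. All HFR libraries lay above all CS libraries, but HFR replicate 4 came close to CS replicate 2. The log2 fold change was 1.29 ± 0.31 (SE), with an edgeR p of 0.000896 and an adjusted p of 0.666. DESeq2 gave an adjusted p of 0.0399 and edgeR without a filter on low counts 0.00678, and over the alternatives of edgeR and DESeq2 the adjusted p ran from 0.00678 to 0.999. The same gene had log2 fold changes of 0.67 ± 0.32 in HFS vs. CS and 0.62 ± 0.30 in HFR vs. HFS. Both depended on HFS replicate 1, without which they were 0.32 and 0.98. ENSRNOG00000031222 had 21.7, 19.9 and 11.96 CPM in CS, 24.1, 28.9 and 19.1 in HFS and 28.8, 38.9, 37.9 and 20.02 in HFR, and HFR overlapped CS, with a log2 fold change of 0.83 ± 0.27 in HFR vs. CS (edgeR adjusted p 0.9895).

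In the other direction, ENSRNOG00000004310 had 79.3, 93.0 and 91.9 CPM in CS, 84.4, 74.2 and 79.6 in HFS and 75.1, 69.5, 47.1 and 69.4 in HFR, a log2 fold change of -0.41 ± 0.16 in HFR vs. CS (edgeR adjusted p 0.9895). Its HFR libraries all lay below its CS libraries, HFR replicate 3 by far, and without that library the log2 fold change was -0.29. ENSRNOG00000014613 had 115, 73.8 and 117 CPM in CS, 82.9, 109 and 79.9 in HFS and 83.9, 76.2, 50.5 and 76.9 in HFR and -0.48 ± 0.20 in the same comparison (edgeR adjusted p 0.9895), with CS replicate 2 below part of HFR. Without CS replicate 2 it was -0.65, and without HFR replicate 3 -0.35. ENSRNOG00000028156 had 12.03, 11.5 and 10.9 CPM in CS, 15.6, 16.2 and 15.02 in HFS and 9.54, 12.5, 6.10 and 9.21 in HFR. HFS lay above CS and HFR in every library, with log2 fold changes of 0.47 ± 0.26 in HFS vs. CS and -0.74 ± 0.24 in HFR vs. HFS (edgeR adjusted p 0.992 and 0.986). The latter was -0.59 without HFR replicate 3.

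Further members near the top had smaller or noisier differences. ENSRNOG00000000433 had 336, 379 and 435 CPM in CS, 327, 268 and 319 in HFS and 314, 298, 305 and 369 in HFR (log2 fold change -0.31 ± 0.15 in HFS vs. CS), and ENSRNOG00000003109 had 69.1, 57.3 and 69.6 CPM in CS, 57.4, 50.4 and 48.2 in HFS and 71.8, 58.5, 64.6 and 56.0 in HFR (-0.30 ± 0.15). HFS lay below CS in every library of the first, where the log2 fold change was -0.20 without CS replicate 3, while HFS replicate 1 reached CS replicate 2 in the second. In HFR vs. HFS, ENSRNOG00000009585 had 7.76, 8.52 and 8.97 CPM in CS, 7.63, 5.02 and 4.43 in HFS and 14.3, 8.57, 7.99 and 6.27 in HFR (0.70 ± 0.33) and ENSRNOG00000016396 had 24.4, 16.3 and 22.9 CPM in CS, 22.2, 24.3 and 16.8 in HFS and 17.1, 14.9, 4.42 and 13.7 in HFR (-0.75 ± 0.33). HFR replicate 1 was high in the first, where the log2 fold change without it was 0.41, and HFR replicate 3 low in the second, where the log2 fold change without that library was -0.48.

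In the fit to all 10 libraries with the filter on low counts, none of the 19 named members reached an unadjusted p under 0.05 with edgeR in any of the 3 comparisons. Without that filter 1 was higher in HFR vs. HFS (5.26%, beside 1.69% of all genes), and so was 1 with only the 2 groups compared (beside 2.4%). Without CS replicate 2, 2 of them were higher in HFS vs. CS (10.5%, beside 6.05% of all genes), 1 lower in HFR vs. CS (5.26%, beside 2.79%) and 1 higher in HFR vs. HFS (5.26%, beside 2.06%) at that level. Without HFR replicate 3, 1 was higher and 1 lower in HFR vs. HFS, beside 2.33% and 3.10% of all genes. Without HFS replicate 2, 1 was lower there, beside 2.3% of all genes, and without HFR replicate 4, 1 was lower in HFR vs. CS, beside 3.63%. Of the 19 named members, 10 had been listed as changed between the diet and running groups. The shares of the named members are therefore a description and no test. Gdf11 stood at 65.3 ± 4.27 CPM in CS, 64.3 ± 2.97 in HFS and 56.6 ± 6.72 in HFR (SD, n = 3, 3 and 4), and Ptch1 at 124 ± 13.0 CPM in CS, 134 ± 18.4 in HFS and 115 ± 12.3 in HFR. Gpr37l1 was at 728 ± 34.3 CPM in CS, 787 ± 103 in HFS and 658 ± 78.9 in HFR, and Metrn at 89.6 ± 30.3 CPM in CS, 98.7 ± 20.6 in HFS and 82.1 ± 13.5 in HFR. These differences were within the spread of the libraries or little beyond it. Nim1k was at 33.7 ± 1.75 CPM in CS, 37.1 ± 5.42 in HFS and 41.6 ± 4.56 in HFR, with HFR above CS in each library (48.1, 37.6, 39.6 and 41.1 against 32.6, 35.7 and 32.7). Dusp7 was at 6.48 ± 1.21 CPM in CS, 7.98 ± 0.880 in HFS and 6.56 ± 1.37 in HFR.

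Ina, Dlx1 and Pafah1b1 were low in CS replicate 2. Ina had 330.2, 206 and 363 CPM in CS, 245, 250.1 and 289.6 in HFS and 397, 307, 254 and 366 in HFR, Dlx1 65.2, 31.9 and 45.7 in CS, and Pafah1b1 232, 169.5 and 241 in CS. Snap25 had 946, 515 and 788 CPM in CS, 555, 801 and 663 in HFS and 852, 799.8, 762 and 746 in HFR, again with CS replicate 2 lowest. The summed microglia and myeloid markers were 132, 281 and 181 CPM in CS, highest in replicate 2. Gfap was also highest there, at 526, 1342 and 468 CPM in CS. The arcuate neuron genes were split. Pomc (481, 871 and 170 CPM in CS) and Ghrh (30.5, 90.2 and 42.7 CPM) were highest in CS replicate 2. Gad2 (413, 113 and 258 CPM), Cck (35.3, 19.5 and 42.9 CPM) and Slc32a1 (647, 320 and 427 CPM) were lowest there. Metrn, Dkk3 and Abhd14b had the opposite order: their CS values were 74.7, 124 and 69.6 CPM, 76.6, 167 and 98.1 CPM and 81.1, 125 and 69.0 CPM, with replicate 2 the highest. HFR replicate 3 also differed from its group in Mt-co1, at 203 CPM against 2431 to 3166. The part of these library differences in the values of the members was not tested.

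For background, edgeR fitted to the 8 miR-211 libraries called 57 of 9625 genes at an adjusted p under 0.05 (0.592%), 1 of them higher with the mimic. All 121 members passed the filter of that fit and none was among the calls, though 106 of them had an unadjusted p under 0.05, beside 333 genes (3.46%) higher at that level over all genes. DESeq2 called 199 of 19259 genes, 13 of them higher, and 8 members. Nothing is read from these counts, because the same contrast chose the members. The 57 calls became 0 without mimic replicate 1, mimic replicate 3 or inhibitor replicate 4, 3 without mimic replicate 2, 21 without mimic replicate 4, 26 without inhibitor replicate 2 and 120 without inhibitor replicate 1.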

How the data were processed

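Bulk MARS-seq libraries came from arcuate nucleus punches of female Wistar rats. The labels give the organism as Rattus rattus, while the gene identifiers are Ensembl identifiers of Rattus norvegicus. The authors aligned reads to Rnor6 with STAR 2.7.9a, removed duplicates with SAMtools and deposited counts per gene from HTSeq 0.13.5, counted without strand, so overlapping and antisense genes cannot be told apart. The file names of the miR-211 counts mention molecular identifiers; for the diet and running counts this is not stated in the sources used here. Those files also hold summary rows (22.4% to 26.3% of reads with no gene, 1.8% to 2.1% ambiguous and 17.2% to 20.6% with several alignments), which were left out of totals.

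CPM was computed from the deposited counts. Genes were tested with edgeR 4.0.16 in R 4.3.3 (filterByExpr, TMM, quasi-likelihood test, Benjamini-Hochberg), tested first on simulated data; limma was 3.58.1, and DESeq2 1.42.0 was an alternative. The members and gene lists were chosen with earlier results of these data known. Symbols came from the study's gene tables, 607 identifiers in all; the RefSeq table of Rattus rattus (Rrattus_CSIRO_v1) paired 0. Genes named were the members with a symbol, in each diet and running comparison the 3 members with the smallest p in each direction (at most 2 without a symbol), genes next to the thresholds, and list genes with an identifier. Alternatives were other normalizations and filters, a replicate block, libraries left out and other thresholds. Chow-fed runners were not analysed here.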

Additional observations from a re-analysis of the deposited data

Results flagged for a closer look

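In groups of 4, a library was singled out when its gap to the nearest other library was a larger share of the range of its group than the limit of the Dixon test at 0.05. Of 126 groups looked at, 6 were singled out. Chance alone gives about 1 in 20, but that rate does not hold for mimic and inhibitor values of the members, which made the choice. For Dkk3, ENSRNOG00000004310, the sum over the members and the Ptch1 part of the Hedgehog sum the share is therefore a description and no test. The share is given in brackets.

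Among values that made the choice, Dkk3 was lowest in inhibitor replicate 2 (0.85), at 9.06 CPM against 11.5 to 11.98 in the other inhibitor libraries. Pafah1b1 was low in HFR replicate 3 (0.924), at 134 CPM against 194 to 199. ENSRNOG00000004310, again by values that made the choice, was highest in inhibitor replicate 3 (0.831), at 35.0 CPM against 31.5 to 32.1. The Hedgehog genes Ptch1 and Smo summed to 218 CPM in mimic replicate 1 (0.952) against 159 to 162 in the other mimic libraries. Cxcl12, the gene of the CXCL12 list with an identifier, was low in mimic replicate 4 (0.892), at 20.4 CPM against 29.3 to 30.4. The sum over the members, whose mimic values made the choice, was highest in mimic replicate 3 (0.878), at 11593 CPM against 10721 to 10827 in the others. Causes were not tested.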

How the results depend on the processing

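The members numbered 44 at a ratio of 1.5, and 95 to 169 under the other thresholds and with TMM factors (98, of which 93 were members). With 1 library left out they numbered 123 to 264, where the condition of no overlap is easier to meet. Over all genes, the miR-211 calls were 199 with DESeq2 and 215 without a filter on low counts, and 0 to 120 with 1 library left out. Members called were 8, 5 and 0 to 1, and nothing is read from these, because the same contrast chose the members. HFS vs. CS called 2 genes with DESeq2, 14 without a filter, 1 without CS replicate 2 and HFS replicate 2 together and 0 to 2 with 1 library left out. HFR vs. CS called 16 with DESeq2, 35 without a filter, 0 without those 2 libraries together, 0 with only the 2 groups compared and 0 to 3 with 1 library left out; the 1 member called, with DESeq2 and without a filter, was ENSRNOG00000046280. HFR vs. HFS called 14 without a filter and 0 to 29 with 1 library left out. The cause was not tested. In HFS vs. CS and HFR vs. HFS no member was called under any alternative run.

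Correlations of the deviations of same-numbered libraries were weak. They ran from -0.185 to 0.243 in the diet and running groups, with 2 of the 3 HFS and HFR pairs over 0.1. Between mimic and inhibitor they ran from 0.06 to 0.256, and those of different-numbered libraries from -0.299 to 0.203. These values do not establish that the numbers pair the animals. With the number as a replicate block, HFR vs. CS called 0 genes, HFR vs. HFS 36 and HFS vs. CS 0, with no member. The miR-211 fit called 51 with that block. Of these 1 was a member, from which nothing is read, because that contrast chose the members.

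The members' median log2 fold changes ran from -0.10 to 0.04 in HFS vs. CS, -0.10 to 0.05 in HFR vs. CS and -0.04 to 0.03 in HFR vs. HFS with 1 library left out. Members near 10 CPM rested on few counts in the miR-211 libraries, where 1 count was worth up to 0.784 CPM.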
